A study of Caenorhabditis elegans with 4 samples.

Results

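The ceh genes are homeobox genes that C. elegans nomenclature numbers under one shared symbol. They were taken here as every gene in the count table whose WormBase symbol starts with ceh-, which gave 63 of the 20392 genes. A raw count sum of at least 40 over the 4 libraries was reached by 46 of the 63, and the other 17 were below it. Of those 17, ceh-28 and ceh-87 had no count in any library. The count table was obtained by RIP-seq, in which the RNA recovered with a protein (the IP) is sequenced beside the RNA of the same lysate (the input). Young adult worms were used, with an input and an IP library from each of 2 biological replicates of different weeks (n = 2 per group). All 4 libraries came from the same genotype, lin-41(rrr3) on chromosome I with the transgene rrrSi367 on chromosome II, which also carries unc-119(+) as its marker. The transgene holds FLAG-GFP-TEV-LIN-41 behind the lin-41 promoter and in front of the full-length lin-41 3′-UTR, so the tagged CeLIN41 is made where that promoter is active. The FLAG tag was used for the IP, and both groups carried the same alleles, and no library without the tagged protein was analysed here.

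Homeobox genes encode transcription factors that bind DNA through a helix-turn-helix domain, the homeodomain. In C. elegans they are best known for setting the identity of cells, and above all of neurons, with many members transcribed in a handful of cell types. They are sorted into classes by the sequence of the homeodomain and by further domains, such as the CUT domain of the ONECUT genes, the POU domain or the LIM domain. CeLIN41 binds and represses mRNAs, and acts in the timing of larval development and in the growth of oocytes. In lysates of whole worms, an mRNA that CeLIN41 does not bind and an mRNA made in cells without tagged CeLIN41 cannot be told apart, and neither can fewer cells of a type and less RNA per cell.

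The libraries held between 33455857 and 40743247 counts. The ceh genes were scarce in all of them, with summed counts of 23766 and 28740 in input (replicates 1 and 2) against 27769 and 25324 in IP, or 0.0622% to 0.0739% of a library. Markers of the tissues of a young adult were found in the inputs, except that the major sperm protein gene msp-10 had no count in any library. The list of 6 oocyte and germline markers was enriched in the IP throughout (6 of 6, log2 fold changes of 0.58 to 2.35). Its summed level was 1871 and 2096 TMM-scaled CPM (counts brought to a common library size) before the IP and 5176 and 5125 after it. The median log2 fold change of the list was 1.07, compared with -0.14 for all tested genes. As log2 IP enrichment after quantile normalization, the study's own measure, its median was 0.21, compared with -0.11 for all tested genes. Depleted in the IP were 4 of 4 intestinal markers, from 2533 and 1872 to 1286 and 1048 summed CPM, and 3 of 3 tested sperm markers, from 9.14 and 5.52 to 2.74 and 1.75. Of the body wall muscle and pharynx lists 2 of 3 markers each were depleted, with unc-54 of muscle enriched. Of the hypodermis list 1 of 3 was depleted, elt-3, and its sum was 685 and 575 CPM before and 734 and 725 CPM after the IP. For the gonadal sheath 3 of 4 markers were depleted and inx-9 was enriched, and for early embryos 4 of 5 were depleted and end-3 was enriched. The neuronal list held 1 enriched gene, rab-3, and 2 depleted genes among 6, and summed to 188 and 195 CPM before and 222 and 218 CPM after the IP. Of all tested genes, 32.9% were enriched and 35.4% depleted in the same test. These marker calls rest on TMM scaling, and those with library size only are not given here. The part that the tissue of origin has in the results below was not tested.

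For the comparison of IP with input, edgeR's quasi-likelihood test (TMM scaling, replicate as block) was run on the 14029 genes that passed a filter on low counts. In this test 47 of the 63 ceh genes were included and 16 were not. The 47 comprise 45 of the 46 genes with at least 40 counts, together with ceh-23 and ceh-24, which had fewer. The gene ceh-8, with 42 counts in all, did not pass. The 16 genes left out had at most 22 counts in a library, and together 165 input counts against 55 IP counts. The genes ceh-16, ceh-23 and ceh-24 passed the filter through their inputs alone, so that a lower IP was built into their being tested.

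Enriched in the IP were 16 of the 47 ceh genes (34%), compared with 32.9% of all tested genes, and depleted were 19 (40.4%), compared with 35.4%. The remaining 12 did not pass the adjusted p threshold of 0.05 (background of 31.8%). The shares of calls lie near those of all genes. The median log2 fold change was -0.29 for the ceh genes and -0.14 for all tested genes. In each of the 16 enriched genes both IPs were above both inputs, and in each of the 19 depleted genes both IPs were below both inputs, on the TMM scale. The calls came from these same 4 libraries, so this is no separate support for them. A log2 fold change above 1 was found for 9 enriched ceh genes (19.1%, background of 17.7% of all tested genes). One below -1 was found for 15 depleted ceh genes (31.9%, background of 19.8%). These 15, like the 19 depleted genes, include ceh-16, ceh-23 and ceh-24, which passed the filter only through their inputs. The calls depend on the scaling. When libraries were scaled by their size only, without TMM, the median of all tested genes moved from -0.14 to -1.07. Then 5 of the 47 ceh genes were enriched (ceh-6, ceh-39, ceh-58, ceh-83 and ceh-89) and 31 depleted. Of all tested genes 11.9% were enriched and 66.5% depleted with this scaling.

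**Figure D1:**
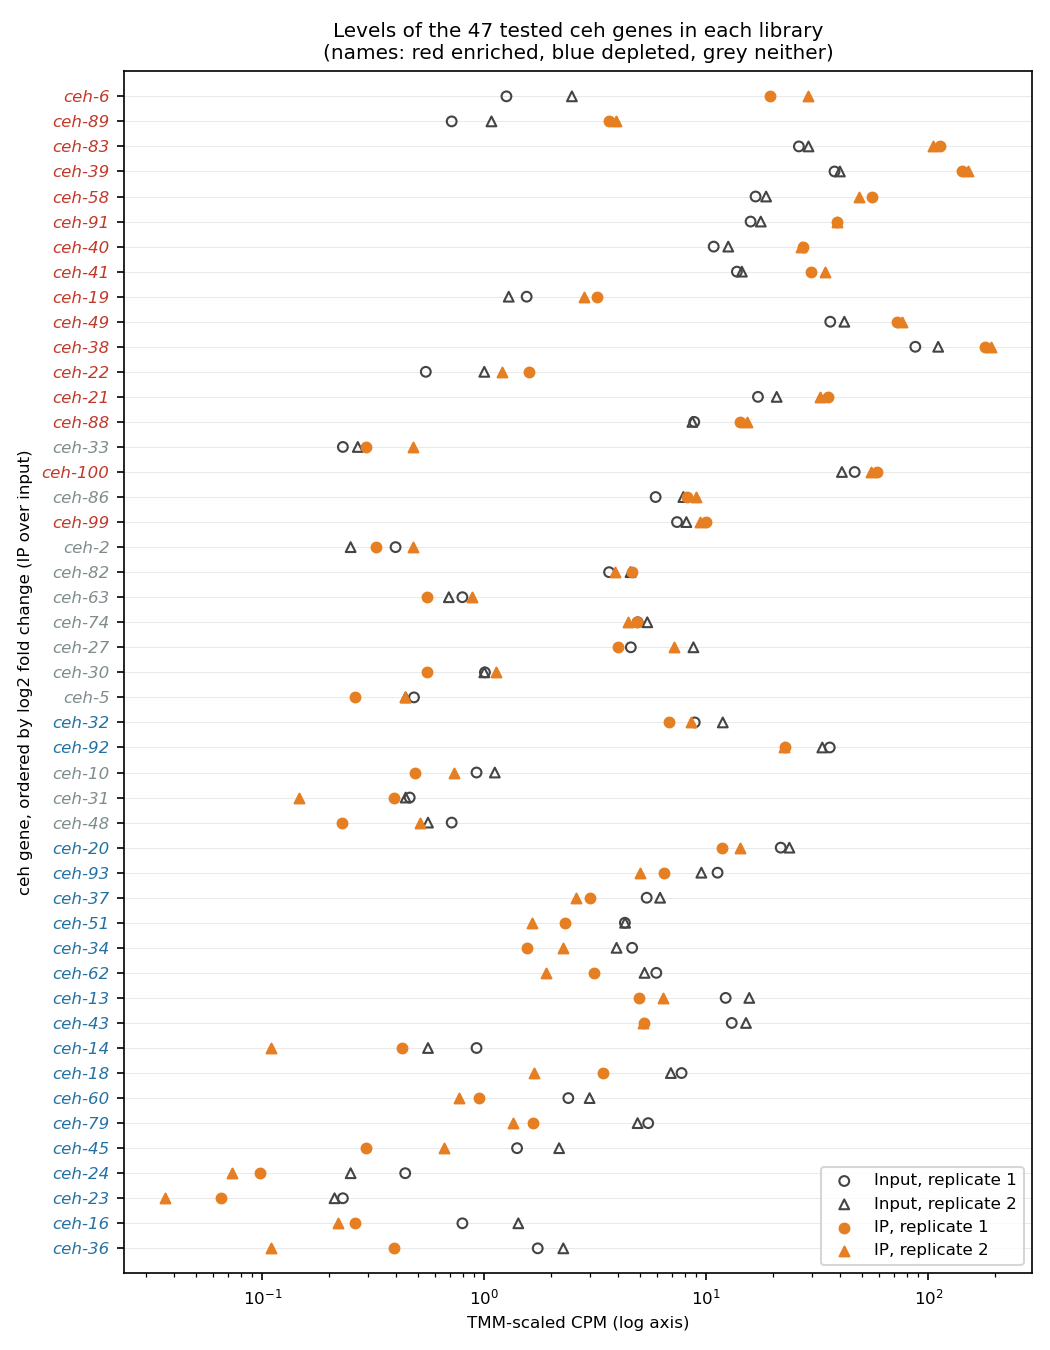
TMM-scaled CPM (log axis) of the 47 tested ceh genes in each of the 4 libraries, one gene per line, ordered by log2 fold change of IP over input. Open symbols are inputs and filled symbols IPs, circles replicate 1 and triangles replicate 2. For the 35 genes whose names are red or blue, both IP values lie on the same side of both input values. The distance can be small, as in ceh-32 with 8.86 in Input 1 and 8.55 in IP 2. The top line is ceh-6 and the bottom line ceh-36.

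The most enriched member was ceh-6 (WBGene00000431, chromosome I in WBcel235), which encodes a POU homeodomain protein needed for the excretory system and for the rectal cell Y. Input replicates 1 and 2 held 60 and 129 counts of it, against 591 and 786 in the IP replicates. Both IPs were far above both inputs, although the inputs differed from each other by more than the IPs did in relative terms. The level of ceh-6 was 1.87 ± 0.864 CPM in the input and 24 ± 6.68 in the IP (SD, n = 2). The log2 fold change was 3.70 ± 0.16 (adjusted p = 7.54e-116), a 13-fold enrichment, at rank 203 among all tested genes. Here and below the figure after ± at a log2 fold change is its standard error (SE), obtained from the unshrunken change and the F statistic rather than from the model. The spread was pooled over all genes, so the SE and adjusted p do not measure the spread between the 2 replicates of a single gene. The study's own measure of IP enrichment, in which quantile-normalized log2 values of the input are subtracted from those of the IP of the same replicate, was 3.87 and 3.46 for ceh-6. Over the alternative fits its largest adjusted p was 1.94e-08, in the edgeR fit without IP replicate 2.

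The other POU gene of the group moved in the opposite direction. The gene ceh-18 (WBGene00000441, chromosome X), which acts in the gonadal sheath cells and is needed for the proper arrest and maturation of oocytes, had 369 and 360 input counts against 105 and 46 IP counts. Both IPs were below both inputs, and the IP of replicate 2 was the lowest. The log2 fold change of ceh-18 was -1.55 ± 0.19 (adjusted p = 1.21e-15), and its log2 IP enrichment was -0.84 and -1.58 in the replicates. With no replicate block its adjusted p was 4.79e-05 (edgeR). Per kilobase of gene model, the level of ceh-6 was 0.265 and 0.583 times that of ceh-18 before the IP (replicates 1 and 2), and 9.17 and 27.8 times that of ceh-18 in the IPs. The order of the 2 genes was thus reversed between input and IP in both replicates. The 4 gonadal sheath markers ranged from -1.81 (lim-7, itself a homeobox gene of the LIM class) to 0.61 (inx-9), with a median log2 fold change of -0.72.

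The second highest fold change belonged to ceh-89 (WBGene00009231, chromosome X), with input counts of 34 and 56 beside IP counts of 112 and 107. Its log2 fold change was 2.09 ± 0.27 (adjusted p = 1.64e-14) and its log2 IP enrichment was 2.37 and 1.96. The ratio of IP to input per TMM-scaled library was 5.12 in replicate 1, where the exact 95% Clopper-Pearson limits were 3.46 and 7.76. In replicate 2 it was 3.63, between limits of 2.61 and 5.11. For ceh-6 these ratios were 15.3 (11.7 to 20.3) and 11.6 (9.60 to 14.1). The intervals of the 2 genes did not overlap in either replicate. They cover counting error only.

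**Figure D2:**
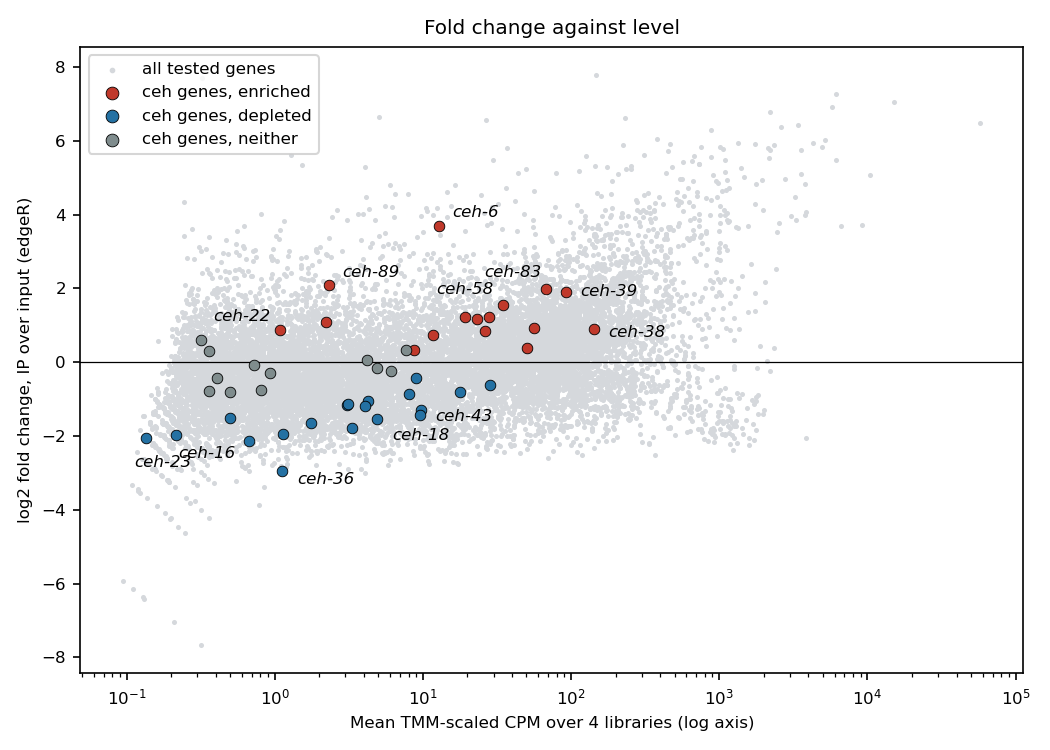
Log2 fold change of IP over input against the mean TMM-scaled CPM over the 4 libraries (log axis), for all 14029 tested genes (light grey) and the 47 tested ceh genes (red enriched, blue depleted, dark grey neither). The genes ceh-6 at 3.70 and ceh-36 at -2.95 are the extremes of the group (TMM scaling). The mean on the x axis includes the IP, so a gene that is high in the IP lies further to the right.

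The calls were also counted by the level of the member in the inputs alone, a division chosen after the data were seen. Among the 16 ceh genes with a mean of at least 10 TMM-scaled CPM in the inputs, 10 were enriched and 6 depleted, where the shares of all tested genes at this level were 50% and 34.4%. Among the 20 ceh genes from 1 to 10 CPM, 4 were enriched and 10 depleted, compared with 19.4% and 47.6% of all tested genes. Below 1 CPM, 2 of 11 ceh genes were enriched, ceh-22 and ceh-89, and 3 were depleted. The shares of all tested genes there were 14.7% and 19.9%. Of the depleted genes, ceh-23 and ceh-24 here and ceh-16 at 1 to 10 CPM passed the filter only through their inputs. When the mean was taken over all 4 libraries, 12 of the 14 ceh genes at 10 CPM or more were enriched. Of all tested genes at this level, 53.8% were enriched and 30.8% depleted. The genes ceh-6 and ceh-88 reach it only with the IP included. The depleted genes ceh-13, ceh-32, ceh-43 and ceh-93 fall below it once the IP is included. With the input level per kilobase of gene model, the Spearman correlation of level and log2 fold change was 0.34 across the 47 ceh genes and 0.187 across all tested genes. The 47 include ceh-16, ceh-23 and ceh-24. These are correlations across genes that share the same libraries, and they describe these libraries only.

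The ONECUT genes were the class with the most enriched members. They encode homeodomain proteins with 1 CUT domain, and in C. elegans CUT genes act together in the expression of genes that all neurons share. Of the 6 members tested, ceh-21, ceh-38, ceh-39, ceh-41 and ceh-49 were enriched (5 of 6, with the background of 32.9%), and ceh-48 did not pass the test. Those 5 had a mean of at least 10 CPM in the inputs, a level at which 50% of all tested genes were enriched. With library size only, however, ceh-21, ceh-38 and ceh-49 fell just below 0. The gene ceh-39 (WBGene00000460, chromosome X), whose product is also one of the X-signal elements that report the number of X chromosomes in sex determination, had 1803 and 2079 counts before the IP and 4369 and 4113 after it. Its level was 38.9 ± 1.54 CPM in the input and 146 ± 5.56 in the IP (SD, n = 2), so that the IPs exceeded the inputs by far more than the replicates differed. The log2 fold change was 1.91 ± 0.11 (adjusted p = 8.67e-72), and the log2 IP enrichment was 1.37 and 1.39. With library size only the log2 fold change of ceh-39 was 0.98 and still past the threshold (adjusted p = 2.45e-08, edgeR).

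The next genes of this class changed by less, and with library size only ceh-41 did not pass the test either (0.25, adjusted p = 0.179, edgeR). For ceh-41 (WBGene00000462, chromosome X), the input counts were 655 and 752 and the IP counts 912 and 941, with a log2 fold change of 1.18 ± 0.12. For ceh-49 (WBGene00017538, chromosome V), the input counts were 1725 and 2177 and the IP counts 2225 and 2081, with a log2 fold change of 0.93 ± 0.10. For ceh-38 (WBGene00000459, chromosome II), the member of most counts, the inputs held 4169 and 5762 counts and the IPs 5503 and 5229, with a log2 fold change of 0.91 ± 0.11. In counts before scaling, the IPs of ceh-38 and ceh-49 lay within or near the range of the inputs. With library size only, their log2 fold changes were -0.022 and -0.0017 and not past the threshold, whereas with RLE size factors they were 0.996 and 1.02 and past it. The log2 IP enrichment after quantile normalization was 0.30 and 0.08 for ceh-38 and 0.56 and 0.46 for ceh-49, compared with a median of -0.11 for all tested genes. The gene ceh-21 had 815 and 1079 input counts against 1088 and 892 IP counts, with a log2 fold change of 0.85 ± 0.11 that became -0.08 with library size only. The remaining member, ceh-48, was far lower, at input counts of 34 and 29 beside IP counts of 7 and 14, and its log2 fold change of -0.81 ± 0.51 did not pass the test (adjusted p = 0.145).

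Because levels can be compared between genes only per length, the ONECUT genes were also ordered by CPM per kilobase of gene model. In the inputs ceh-38 and ceh-49 were the highest of the 47 ceh genes, at 36.2 and 34.7 on average, followed by ceh-39 at 21.2. In the IPs ceh-39 was the highest in both replicates, at 79.6 on average, followed by ceh-38 at 67.7 and ceh-49 at 66.1. The genes ceh-38 and ceh-49 did not differ beyond their spread, since ceh-49 was above ceh-38 in the input of replicate 1 and below it in the other 3 libraries. The ratio of ceh-38 to ceh-39 was 1.55 and 1.86 before the IP and 0.846 and 0.854 after it. The genes ceh-41, ceh-21 and ceh-39 lie near each other on the same strand of chromosome X, with no coding gene between ceh-41 and ceh-21 and 1 between ceh-21 and ceh-39. The treatment of reads that match more than 1 gene was not stated, which limits the separation of related neighbours.

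The PBC genes, relatives of vertebrate Pbx that act as cofactors of Hox proteins, split between both directions. The gene ceh-40 (WBGene00000461, chromosome X) had 515 and 653 counts before the IP and 839 and 732 after it, with a log2 fold change of 1.21 ± 0.12 (adjusted p = 1.21e-22). The gene ceh-20 (WBGene00000443, chromosome III), which acts in the postembryonic mesoderm, had 1032 and 1231 input counts against 360 and 387 IP counts, with a log2 fold change of -0.81 ± 0.12 (adjusted p = 1.91e-10). The gene ceh-60 (WBGene00017690, chromosome X), which acts in the intestine in the production of yolk proteins, had input counts of 114 and 155 beside IP counts of 29 and 21, with a log2 fold change of -1.63 ± 0.29 (adjusted p = 7.82e-08). The 3 genes therefore took 3 separate positions, ceh-40 above, ceh-20 below and ceh-60 furthest below, and their log2 fold changes were further apart than their standard errors. With library size only, ceh-40 kept a positive value of 0.28 but did not pass the test (adjusted p = 0.132, edgeR). In the input ceh-20 was the fourth highest member per kilobase, at 17.6 CPM, and in the IPs it was at 10.1.

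**Figure D3:**
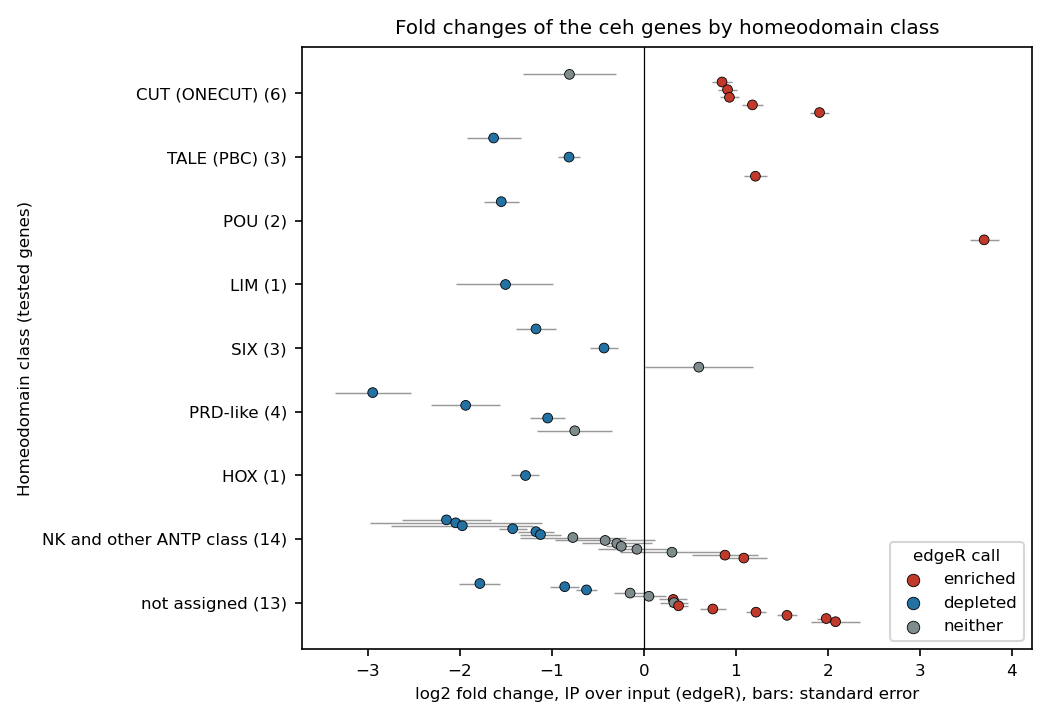
Log2 fold changes of the tested ceh genes by homeodomain class, with the number of tested genes in parentheses. Points are genes (red enriched, blue depleted, grey neither) and bars are standard errors. The ONECUT genes lie to the right except ceh-48 (with library size only ceh-21, ceh-38 and ceh-49 would lie just left of 0), the PRD-like genes lie to the left, and the POU and PBC genes fall on both sides.

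The PRD-like genes were depleted or did not pass the test. Of 4 tested, ceh-36, ceh-37 and ceh-45 were depleted (3 of 4, with the background of 35.4%), and ceh-10 was at -0.75 ± 0.41 (adjusted p = 0.0892). The 3 depleted genes had 1 to 10 CPM in the inputs, a level at which 47.6% of all tested genes were depleted. The gene ceh-36 (WBGene00000457, chromosome X), an Otx relative that sets the identity of the AWC and ASE sensory neurons, was the most depleted member of all. It had 83 and 118 counts before the IP and 12 and 3 after it. The log2 fold change was -2.95 ± 0.41 (adjusted p = 2.65e-12), and ceh-36 stood at rank 43 from the bottom of all tested genes. The depletion was present in each replicate but its size was not well fixed. The ratio of IP to input was 0.225 in replicate 1 (exact 95% interval of 0.112 to 0.414) and 0.0483 in replicate 2 (0.00983 to 0.145), and the log2 IP enrichments of -1.39 and -2.72 differed by more than those of any other tested ceh gene. Without IP replicate 2 the log2 fold change of ceh-36 was -2.38 (adjusted p = 8.48e-04, edgeR) and without IP replicate 1 it was -4.15. Its neighbour ceh-37, the Otx relative of the AWB neurons, was at -1.04 ± 0.19. The gene ceh-45 (WBGene00022837, chromosome I), a relative of goosecoid, had 67 and 113 input counts against 9 and 18 IP counts, with a log2 fold change of -1.94 ± 0.38 (adjusted p = 6.47e-07).

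The NK genes and other genes of the ANTP class form the largest class, and most of them were scarce. Of 19 members 14 were tested, of which 2 were enriched and 6 (42.9%) were depleted, with backgrounds of 32.9% and 35.4%. Of these 6, ceh-16, ceh-23 and ceh-24 passed the filter only through their inputs. The enriched genes were ceh-19 and ceh-22 (at 0.16 and -0.05 with library size only, both without a call), both with known roles in the pharynx. The gene ceh-19 (WBGene00000442, chromosome IV), needed for the identity of the pharyngeal MC motor neurons, had input counts of 74 and 67 beside IP counts of 99 and 77. Its log2 fold change was 1.09 ± 0.26 (adjusted p = 4.61e-05), with a log2 IP enrichment of 1.29 in each replicate. The gene ceh-22 (WBGene00000445, chromosome V), an NK-2 relative that activates genes of pharyngeal muscle, had 26 and 52 counts before the IP and 49 and 33 after it. Its log2 fold change was 0.88 ± 0.36 (adjusted p = 0.0214), but the replicates disagreed in size, with log2 IP enrichments of 1.54 and 0.49. This call was lost with DESeq2 (adjusted p = 0.133), with no replicate block (adjusted p = 0.0667, edgeR) and in 3 of 4 edgeR fits that left out a library (adjusted p of 0.402 without Input replicate 1, 0.329 without IP replicate 1 and 0.100 without IP replicate 2). The pharyngeal markers myo-1 and myo-2 were depleted and pha-4 did not pass the test.

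Among the depleted genes of this class, ceh-43, ceh-51 and ceh-62 had the most counts. The gene ceh-43, the Distal-less relative of the anterior epidermis and of dopaminergic neurons, was at 13 and 15.1 CPM before and 5.25 and 5.19 CPM after the IP, with a log2 fold change of -1.42 ± 0.15 (adjusted p = 6.20e-20). The gene ceh-51, which acts in the mesoderm of the MS lineage in embryos, had 205 and 224 input counts against 71 and 45 IP counts, with a log2 fold change of -1.12 ± 0.22. The gene ceh-62 was at -1.17 ± 0.20. The other 3 were low. The engrailed relative ceh-16 (WBGene00000439, chromosome III), which acts in the seam cells, had input counts of 38 and 74 beside IP counts of 8 and 6, with a log2 fold change of -2.14 ± 0.49 (adjusted p = 2.17e-05). The gene ceh-24 (WBGene00000447, chromosome V), expressed in pharyngeal and vulval muscles, had 21 and 13 counts before the IP and 3 and 2 after it. The gene ceh-23 (WBGene00000446, chromosome III), expressed in the AIY interneurons among others, had 11 and 11 input counts against 2 and 1 IP counts.

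At counts this low the size of a change was open to a wide range. The log2 fold changes were -1.97 ± 0.77 for ceh-24 and -2.04 ± 0.94 for ceh-23. The ratio of IP to input of ceh-24 was 0.222 in replicate 1 (exact 95% interval of 0.0424 to 0.744) and 0.292 in replicate 2 (0.0320 to 1.29). For ceh-23 the ratio was 0.283 (0.0304 to 1.30) and 0.173 (0.0040 to 1.19), so that neither interval of ceh-23 lay wholly below 1. The edgeR test, which pools the spread over all genes, gave adjusted p-values of 0.0145 and 0.0363 for ceh-24 and ceh-23. With DESeq2 these became 0.212 and 0.288, and without IP replicate 2 they were 0.196 and 0.294 (edgeR). Both genes, like ceh-16, passed the filter only through the inputs, and both also lost their call without IP replicate 1 and with no filter on low counts (adjusted p = 0.162 for ceh-23 and 0.0575 for ceh-24, edgeR), and ceh-24 without Input replicate 1. The 6 members of this class that did not pass the test were ceh-2, ceh-5, ceh-27, ceh-30, ceh-31 and ceh-63.

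Of the relatives of sine oculis, a Drosophila gene of eye development, ceh-34 and ceh-32 were depleted. The gene ceh-34, which sets the identity of pharyngeal neurons, had input counts of 221 and 205 beside IP counts of 48 and 62, with a log2 fold change of -1.17 ± 0.22 (adjusted p = 2.82e-07). The change of ceh-32 was smaller, at -0.43 ± 0.15 (adjusted p = 0.00738), and its call was lost with DESeq2, with no replicate block, without Input replicate 2 and without IP replicate 1. Next to ceh-34 on chromosome V lies ceh-33, which had 11 and 14 counts before the IP and 9 and 13 after it and did not pass the test (log2 fold change 0.60 ± 0.59). The only Hox gene with a ceh symbol, ceh-13, is the labial relative of the anterior body. It had 583 and 812 input counts against 153 and 174 IP counts, a log2 fold change of -1.29 ± 0.15 (adjusted p = 4.95e-17). The LIM gene ceh-14, which acts in the AFD thermosensory neurons and others, had input counts of 44 and 29 beside IP counts of 13 and 3, and a log2 fold change of -1.51 ± 0.53 (adjusted p = 0.00671) that was lost with DESeq2, without Input replicate 1 and without IP replicate 2.

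The members to which no class was assigned here were more often enriched than depleted. Of 13 tested, 7 were enriched and 3 depleted (backgrounds of 32.9% and 35.4%), although with library size only ceh-88, ceh-99 and ceh-100 of the 7 were negative and ceh-91 lost its call. Of the 7, ceh-58, ceh-83, ceh-91 and ceh-100 had at least 10 CPM in the inputs, where 50% of all tested genes were enriched. The genes ceh-88 and ceh-99 had 1 to 10 CPM (19.4% of all tested genes enriched) and ceh-89 had less than 1 CPM (14.7%). The genes ceh-83 and ceh-58, on chromosome II, were the most abundant of the unassigned genes per kilobase in the IP. For ceh-83 (WBGene00018446), the inputs held 1246 and 1501 counts and the IPs 3448 and 2880, with a log2 fold change of 1.99 ± 0.10 (adjusted p = 1.47e-77) and a log2 IP enrichment of 1.66 and 1.46. For ceh-58 (WBGene00007417), the inputs held 795 and 967 counts and the IPs 1702 and 1327, with a log2 fold change of 1.56 ± 0.11 (adjusted p = 1.58e-45). Both stayed enriched with library size only, at 1.05 and 0.62. Each has another ceh gene as its direct neighbour. The neighbour of ceh-83, ceh-82, was at 3.65 and 4.55 CPM in input and 4.63 and 3.87 CPM in IP (log2 fold change 0.06 ± 0.19), and the neighbour of ceh-58, ceh-57, had 16 counts in all and was not tested.

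The genes ceh-91 and ceh-92, both on chromosome III, moved in opposite directions. For ceh-91 (WBGene00013425), the input counts were 755 and 915 and the IP counts 1193 and 1066, with a log2 fold change of 1.22 ± 0.11 (adjusted p = 8.42e-27) that fell to 0.29 with library size only (adjusted p = 0.114, edgeR). For ceh-92, the inputs held 1716 and 1732 counts and the IPs 693 and 613, with a log2 fold change of -0.62 ± 0.11 (adjusted p = 5.18e-08). In the inputs ceh-92 was above ceh-91, at 14.4 and 7.74 CPM per kilobase, and in the IPs it was below, at 9.34 and 18. A further depleted gene was ceh-93 at -0.86 ± 0.16. The most depleted of the unassigned genes was ceh-79 (WBGene00007749, chromosome V), with 261 and 255 counts before the IP and 51 and 37 after it, a log2 fold change of -1.78 ± 0.22 (adjusted p = 3.78e-15) and log2 IP enrichments of -1.30 and -1.37. The smallest changes called were those of ceh-100, at 0.38 ± 0.10, and of ceh-99, at 0.32 ± 0.15 (adjusted p = 0.0495). The call of ceh-100 was lost without Input replicate 2. The call of ceh-99 was lost in 9 of the 10 alternative fits, among them each fit that left out 1 library, and with library size only both genes were called depleted. The gene ceh-86, on the other side of the threshold (adjusted p = 0.0513), had almost the same log2 fold change of 0.33.

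**Figure D4:**
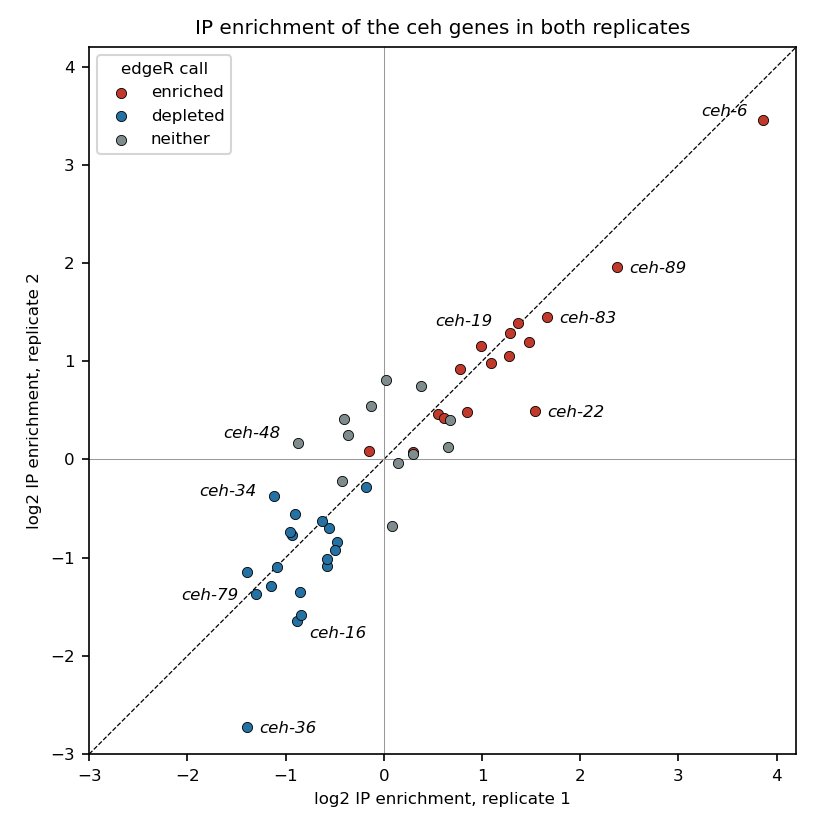
Log2 IP enrichment of the 47 tested ceh genes after quantile normalization, replicate 2 against replicate 1, coloured by the edgeR call, with a dashed line where both are equal. Of the 35 called genes 34 have the same sign in both replicates, ceh-6 lies at 3.87 and 3.46, and ceh-36 lies furthest from the line.

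Between replicates, the log2 IP enrichment of a ceh gene differed by a median of 0.27, compared with 0.20 for all tested genes. The sign was the same in both replicates for 40 of the 47 ceh genes and for 34 of the 35 called ones, the exception being ceh-100 at -0.15 and 0.08. The other genes of unequal sign were ceh-5, ceh-27, ceh-30, ceh-31, ceh-48 and ceh-63, none of which passed the test. An enrichment above 1 in both replicates was found for 7 ceh genes (ceh-6, ceh-19, ceh-39, ceh-40, ceh-58, ceh-83 and ceh-89), with a background of 11.8% of all tested genes. An enrichment below -1 in both was found for 5 (ceh-13, ceh-36, ceh-43, ceh-45 and ceh-79), with a background of 12.4%.

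The length of the annotated 3′-UTR, a region through which CeLIN41 is known to act on several mRNAs, did not sort the members by their change. Only length was compared, and the RNA stem-loops that CeLIN41 binds were not searched for here. In the Ensembl annotation (WBcel235) the median length was 253 bases for the 16 enriched genes (56 to 1685) and 228 for the 19 depleted genes (75 to 852). It was 147 for the other 12 (44 to 477) and 147 for all tested genes. Across the 47 ceh genes the Spearman correlation of 3′-UTR length and log2 fold change was 0.0071, compared with 0.168 across all tested genes. The depleted genes included ceh-18 and ceh-14, with 852 and 847 bases, and the enriched genes included ceh-99 with 56. This annotation is later than the WS220 models on which the authors counted, so coordinates are not given. By chromosome, 6 of the 8 tested members on chromosome III were depleted and 1 enriched (33.1% and 38.5% of all tested genes there). Of these 6, ceh-16 and ceh-23 passed the filter only through their inputs. Of 14 members on chromosome X, 6 were depleted and 5 enriched (40.1% and 24.6% of all tested genes there).

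Of the tested members, 10 overlap another coding gene on the opposite strand and 2 on the same strand. On the opposite strand, ceh-38 overlaps tra-2, which was enriched at 1.81 ± 0.11, and ceh-16 overlaps polk-1, which was enriched at 2.04 ± 0.11 while ceh-16 itself was depleted. The gene ceh-19 overlaps mcm-3AP at 0.35 ± 0.10, ceh-51 overlaps emb-4 at -1.62 ± 0.13 and ceh-60 overlaps ets-4 at -0.58 ± 0.13. Also on the opposite strand, ceh-5, at -0.42 ± 0.54, overlaps ocrl-1 at 2.29 ± 0.11. On the same strand, ceh-88, at 0.75 ± 0.14, overlaps C49C3.6 at 1.38 ± 0.10. The other same-strand overlap is that of ceh-63, at -0.07 ± 0.42, with tag-52 at 4.40 ± 0.14. The IPs held 17 and 24 counts of ceh-63 and 14248 and 16077 of tag-52. The libraries were stranded, but nothing read here says whether counting used the strand. The values of these members are therefore less certain than those of ceh-6, ceh-36, ceh-39, ceh-58 and ceh-83, for which no overlapping coding gene is annotated.

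The homeobox genes that carry another name were taken from a list of 38, of which 36 were tested. In the IP 8 were enriched (22.2%, with the background of 32.9%) and 18 depleted (50%, with the background of 35.4%). The median log2 fold change was -0.67, compared with -0.29 for the ceh genes, and the difference between the 2 lists was not tested. The highest was pal-1, the maternal caudal relative that specifies posterior fates in the embryo, at 1.93 ± 0.13, followed by the Pax6 relative vab-3 at 1.35 ± 0.17, zfh-2 at 1.18 ± 0.13 and the Hox gene lin-39 at 1.06 ± 0.14. The other Hox genes were not enriched, with mab-5 at -1.39, php-3 at -1.28 and egl-5 at -0.82 depleted and nob-1 at -0.08 without a call (edgeR, adjusted p = 0.670). The enriched genes also included unc-62 at 0.26 ± 0.11, the Meis relative that acts with the PBC proteins. Its log2 IP enrichments differed in sign between the replicates, at 0.21 and -0.21. With library size only, the log2 fold change of unc-62 was -0.68. The lowest was unc-4, a gene of motor neurons, at -2.31 ± 0.68. None of these 36 genes reached the log2 fold change of ceh-6.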

How the data were processed

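RIP-seq libraries (2 inputs and 2 IPs) were analysed from gene tables. The authors deposited whole-number counts per gene, quantified on assembly ce10 with WormBase WS220 models, and log2 values that they scaled to the mean library size, offset by a pseudocount of 8 before taking logs, and then quantile-normalized. The same steps applied to the counts gave all 81568 log2 values to within 5e-09. Aligner and counter were not stated in the sources. Symbols came from a WormBase name table, matched by gene identifier for all 63 members. Chromosomes and 3′-UTRs came from Ensembl release 115 (WBcel235).

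Counts were tested with edgeR 4.0.16 in R 4.3.3 over 14029 genes (filterByExpr, TMM, replicate as a block, Benjamini-Hochberg adjustment over all tested genes). TMM factors were 1.43 and 1.34 (inputs) and 0.779 and 0.672 (IPs). The methods of the study subtract each input from its own IP, which gives the pairing, and replicate differences in IP and input correlated across genes (r = 0.393). With the block, 1 residual degree of freedom remained and the spread was pooled fully over genes. Alternatives were DESeq2 1.42.0, no block, RLE, library size only, other filters and leaving out each library. Python 3.11.15, pandas 2.3.3, scipy 1.17.1 and matplotlib 3.10.9 served for the rest.

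The rule for full values took the 12 highest and 8 lowest called members, the 5 highest in the input per length, and ceh-18, ceh-20, ceh-39 and ceh-60. Other members were named after their values were seen. Members, classes and lists were chosen with earlier results of these data known. No sequences are shown.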

Additional observations from a re-analysis of the deposited data

How the results depend on the processing

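Scaling mattered most. With library size only, 5 ceh genes were enriched and 31 depleted, in place of 16 and 19. Of all tested genes 11.9% were then enriched and 66.5% depleted. Of the 16, ceh-99 and ceh-100 were then called depleted. The edgeR log2 fold changes of ceh-49, ceh-38 and ceh-22 turned to -0.0017, -0.022 and -0.049, and their log2 IP enrichments without quantile normalization to -0.0010, -0.022 and -0.022. Relative to the median of all tested genes, the fold changes of these 3 genes were 1.07, 1.05 and 1.02 with TMM. With library size only they were 1.06, 1.04 and 1.02 relative to that median. All 16 enriched members stayed above the median and all 19 depleted members below it. Why the 2 scalings differ was not tested. The other numbers of enriched and depleted genes stayed within 1.5 times. They were 14 and 15 with DESeq2, 17 and 19 with RLE, and 15 and 17 with no filter. With at least 10 counts in every library they were 15 and 14, and 6 depleted genes were no longer tested. Leaving out 1 library (fits with group only) gave 14 enriched and 16 to 17 depleted genes. With no replicate block 14 were enriched and 18 depleted, and the calls of ceh-22, ceh-99 and ceh-32 were lost. Of the 21 genes given in full values, all kept direction and call with RLE, and 18 did with DESeq2. Log2 IP enrichments moved by more than the spread between replicates for 17 of the 21 with library size only (besides the 3 that turned sign), 10 with TMM factors and 5 with a pseudocount of 1. Depth limits the genes with few counts, such as ceh-23 and ceh-24.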
